A study of Mus musculus with 4 samples.

Results

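The 28 genes described here encode the enzymes that make cholesterol and fatty acids, together with regulators of these enzymes: 6 enzymes of the mevalonate pathway, 11 enzymes from squalene to cholesterol, 4 regulators or carriers of sterols, and 7 enzymes of fatty acid synthesis. They were chosen by name from the 27998 genes of the count tables and followed in cells of mouse intestinal crypts. In this pathway acetyl-CoA is condensed and reduced to mevalonate, built up to squalene, closed into lanosterol and trimmed to cholesterol. SREBP proteins, membrane-bound transcription factors encoded by *Srebf1* and *Srebf2*, switch the genes on when sterols run low, and INSIG1 holds them back in the endoplasmic reticulum when sterols are plentiful. SREBP bound at sterol regulatory elements or E-boxes usually acts with NF-Y, which binds CCAAT boxes. Secretory cells of the crypt, the Paneth cells at its base and the mucus-filled goblet cells, carry an extensive endoplasmic reticulum, the compartment in which most of these enzymes sit.

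Epithelial cells (EpCAM+ CD45-, live) were sorted from crypt preparations of mice aged 8 weeks. Their transcripts were captured in droplets by 10x Genomics 3′ chemistry, in 2 libraries labelled slc7a5 fl/fl (a floxed *Slc7a5* allele, no deletion) and 2 labelled slc7a5 IEC-KO (the same floxed allele deleted by Cre under the villin promoter, which is active throughout the intestinal epithelium). The records name 4 mice without saying how they were divided among the libraries, so p values here measure the spread between these libraries. Tables of unique molecular identifiers (UMIs, each 1 captured transcript) held 3633 and 3217 cells in the fl/fl libraries and 10004 and 9644 in the IEC-KO libraries, with 87922473 to 127094508 UMIs per library. Cells in which alpha-defensin genes (symbols starting with Defa) took at least 30% of UMIs were taken as Paneth cells, 2020 and 1950 in the fl/fl libraries and 2019 and 2336 in the IEC-KO libraries, and cells under 20% as other cells, 1493, 1178, 6680 and 6090. Of the Paneth cells so chosen, 97.3% to 97.9% per library also fell into clusters with Paneth markers, but mostly into different ones in the 2 labels. The cluster led by *Gm15292* held 1876 and 1788 cells of the fl/fl and 30 and 12 of the IEC-KO libraries, that led by *Gm15299* 10 and 5 against 1525 and 1573, and that led by *Reg4*, cells under the 30% limit included, 6 and 11 against 2237 and 2050. Goblet-like, transit amplifying (TA)-like and enterocyte-like classes came from clusters named by marker genes and drawn without the 28 genes. Markers of immune and stromal cells took at most 8.5e-05% and 0.00016% of UMIs in any class of any library.

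*Slc7a5* itself, which encodes an amino acid transporter, was counted at a higher level in the Paneth and the other cells of the IEC-KO libraries, against their label: 91 and 84 UMIs in Paneth cells of the fl/fl libraries against 128 and 252 in those labelled IEC-KO, a log2 fold change of 1.71 in edgeR's quasi-likelihood test (SE 0.15, adjusted p = 4.98e-09), and 47 and 43 against 176 and 268 UMIs in other cells (0.81, adjusted p = 0.00113). It did not pass in goblet-like cells (0.60, adjusted p = 0.0951) or in TA-like cells, with 2.74 and 2.85 CPM (UMIs scaled as described below) in the fl/fl against 2.25 and 2.64 in the IEC-KO libraries (-0.17). The 3′ counts do not show whether the deleted exon was present. Every direction below therefore rests on the labels. The cells themselves differed between the labels. By the Defa limit, Paneth cells made up 55.6% and 60.6% of cells in the fl/fl and 20.2% and 24.2% in the IEC-KO libraries. Goblet-like cells made up 18.1% and 15.9% against 32.1% and 31.6%. Cells of clusters with Paneth markers between the Defa limits numbered 84 and 53 in the fl/fl against 1121 and 966 in the IEC-KO libraries. A further 8 and 4 against 782 and 470 cells of these clusters counted as other cells. The Paneth shares thus depend on the Defa limit. Depth per cell also differed, with median UMIs of 46965 and 52851.5 per Paneth cell in the fl/fl libraries against 13782 and 20159 in the IEC-KO libraries, and 10041 and 10996 against 5465.5 and 7717 per goblet-like cell. In sums over cells, fewer transcripts per cell and fewer expressing cells cannot be told apart.

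Promoters are shown for 4 members that came out lower below: an early mevalonate enzyme, a regulator, a sterol enzyme and a fatty acid enzyme. These promoters hold letters known as binding motifs of SREBP or NF-Y. Sequences are from RefSeq (GRCm38.p6), 5′ to 3′ on the gene's strand, and run over 200 bases that end 50 bases before the transcription start. Capitals mark TCACNCCAC (a sterol regulatory element), CACGTG (an E-box) or CCAAT on either strand. They cover chr13:119690101-119690300 on the plus strand, chr5:28071162-28071361 on the plus strand, chrX:72918271-72918470 on the plus strand and chr11:120824598-120824797 on the minus strand.
Hmgcs1: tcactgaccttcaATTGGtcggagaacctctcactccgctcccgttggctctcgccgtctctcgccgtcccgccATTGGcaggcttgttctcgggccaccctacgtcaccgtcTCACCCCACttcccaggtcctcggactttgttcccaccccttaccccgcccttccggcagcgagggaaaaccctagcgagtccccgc
Insig1: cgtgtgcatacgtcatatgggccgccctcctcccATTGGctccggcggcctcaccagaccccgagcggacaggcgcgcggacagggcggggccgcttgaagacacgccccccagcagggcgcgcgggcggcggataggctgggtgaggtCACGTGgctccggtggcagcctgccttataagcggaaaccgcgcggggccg
Nsdhl: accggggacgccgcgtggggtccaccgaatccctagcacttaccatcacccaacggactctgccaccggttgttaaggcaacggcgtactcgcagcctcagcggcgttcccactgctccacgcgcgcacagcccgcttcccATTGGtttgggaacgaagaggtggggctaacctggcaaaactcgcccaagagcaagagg
Fasn: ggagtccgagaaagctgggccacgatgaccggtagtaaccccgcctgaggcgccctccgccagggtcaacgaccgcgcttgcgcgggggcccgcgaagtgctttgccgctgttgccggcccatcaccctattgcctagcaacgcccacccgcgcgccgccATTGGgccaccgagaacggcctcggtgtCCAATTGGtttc
The stretch of *Hmgcs1* held 1 sterol regulatory element, starting 137 bases before the transcription start, and 2 CCAAT boxes. That of *Insig1* held 1 E-box, 101 bases before the start, and 1 CCAAT box. *Nsdhl* had 1 CCAAT box here and *Fasn* 3, of which 1 pair overlaps. Neither *Nsdhl* nor *Fasn* held a sterol regulatory element or an E-box of these letters. Promoter sequences from 250 bases before to 50 after a start were matched for 22 of the 28 genes (28 start sites), and 20 of the 22, 90.9%, held a CCAAT box in at least 1 of them, against 41.1% of 27025 genes in the table. The E-box was found for 4 of the 22, 18.2% against 8.09% of all genes, and the sterol regulatory element for *Hmgcs1* alone, 4.55% against 1.44%. Such a match describes letters and shows no binding.

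In goblet-like cells summed as 1 class, transcripts of cholesterol synthesis genes were lower along most of the pathway in the IEC-KO libraries. The makeup of this class by cluster differed between the labels, and far fewer members were called lower inside single clusters, as given below. Of the 27 members tested, 17 were lower and 0 higher in edgeR's quasi-likelihood test (Benjamini-Hochberg adjusted p under 0.05), where 8.34% of all 10893 genes tested were called lower and 8.8% higher. The median log2 fold change was -0.38 over the members and 0.00 over all genes. The remaining member, the desaturase *Scd1*, had 0, 0, 0 and 1 UMIs and was not tested. At an unadjusted p under 0.05, 0 members were higher, and DESeq2 called 0 higher as well. All levels below are CPM, UMIs of a gene per 1000000 UMIs of the sum. They are given after TMM scaling, in which 1 factor per sum removes shifts shared by most genes, unless they are called unscaled. Scaled by library size alone, 13 members were lower and 0 higher, and the genes called were 5.61% lower and 11.4% higher.

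*Hmgcs1*, whose enzyme makes HMG-CoA at the entry of the mevalonate pathway (chromosome 13, 119690379 to 119708260 of GRCm38, plus strand), moved most. It stood at 99.8 and 109 CPM in the fl/fl libraries and at 55.0 and 55.9 in the IEC-KO libraries. Both IEC-KO libraries thus lay at about the same level, well under both fl/fl libraries, a log2 fold change of -0.91 (SE 0.08, adjusted p = 9.97e-10). Further down the mevalonate branch, *Fdps*, which makes farnesyl diphosphate, had 167 and 153 CPM in the fl/fl and 116 and 109 in the IEC-KO libraries (log2 fold change -0.51, SE 0.07, adjusted p = 1.33e-05). *Idi1*, the isomerase that feeds it, had 29.9 and 22.9 against 19.5 and 16.9 CPM (-0.56 on the log2 scale). Mevalonate kinase (*Mvk*) and mevalonate diphosphate decarboxylase (*Mvd*) were lower as well, by log2 fold changes of -0.36 and -0.49. Phosphomevalonate kinase (*Pmvk*) was the 1 enzyme of the 6 that did not pass, with 64.1 and 46.1 CPM against 56.4 and 50.6, where the groups overlapped.

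From squalene to cholesterol, 8 of the 11 enzymes were lower. *Nsdhl*, a dehydrogenase that helps remove methyl groups from the sterol ring, stood at 13.6 and 13.7 CPM in the fl/fl libraries and 8.39 and 8.43 in the IEC-KO libraries, the largest change of this branch (log2 fold change -0.70, SE 0.14, adjusted p = 0.000594). *Msmo1*, the oxidase of the same demethylation, had 83.6 and 82.5 against 57.1 and 54.4 CPM (-0.58, adjusted p = 3.45e-06). *Ebp*, the isomerase that moves the sterol ring's double bond, had 142 and 140 against 107 and 93.8 CPM (-0.50, adjusted p = 3.05e-05). For all of these the groups were apart. *Lss*, which closes squalene epoxide into lanosterol, *Dhcr7* and *Sc5d*, which act late in the pathway, *Fdft1*, which makes squalene, and *Sqle*, which oxidises it, were lower with log2 fold changes of -0.50, -0.47, -0.43, -0.35 and -0.32. The lanosterol demethylase *Cyp51* had 48.1 and 41.9 CPM in the fl/fl and 46.6 and 45.2 in the IEC-KO libraries and did not pass, nor did *Tm7sf2* (3.87 and 5.37 against 4.10 and 4.57 CPM) or *Hsd17b7* (7.16 and 5.37 against 5.50 and 5.68 CPM).

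Among the regulators, *Insig1* was lower, with 23.2 and 30.0 CPM in the fl/fl and 15.9 and 15.2 in the IEC-KO libraries (log2 fold change -0.76, SE 0.11, adjusted p = 2.1e-05). The transcripts of the SREBPs did not pass: *Srebf2*, the form best known for cholesterol genes, had 25.3 and 21.5 CPM against 21.7 and 24.6, and *Srebf1*, the form best known for fatty acid genes, 9.02 and 8.67 against 7.09 and 8.17. The sterol carrier *Stard4* had 59.8 and 54.6 against 49.4 and 52.5 CPM and did not pass either. Of the fatty acid enzymes, 3 of 6 tested were lower. *Scd2*, a desaturase that makes monounsaturated fatty acids, had 125 and 120 CPM in the fl/fl and 69.2 and 78.2 in the IEC-KO libraries (log2 fold change -0.73, SE 0.08, adjusted p = 8.75e-08). Fatty acid synthase (*Fasn*) and the elongase *Elovl6* were lower by log2 fold changes of -0.46 and -0.38. *Acly*, which supplies cytosolic acetyl-CoA, did not pass (71.4 and 73.0 against 68.8 and 68.9 CPM), and neither *Acaca*, the carboxylase that makes malonyl-CoA (7.01 and 7.45 against 6.99 and 6.09 CPM) nor *Me1* (1.72 and 1.21 against 1.95 and 1.34 CPM) passed.

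**Figure D1:**
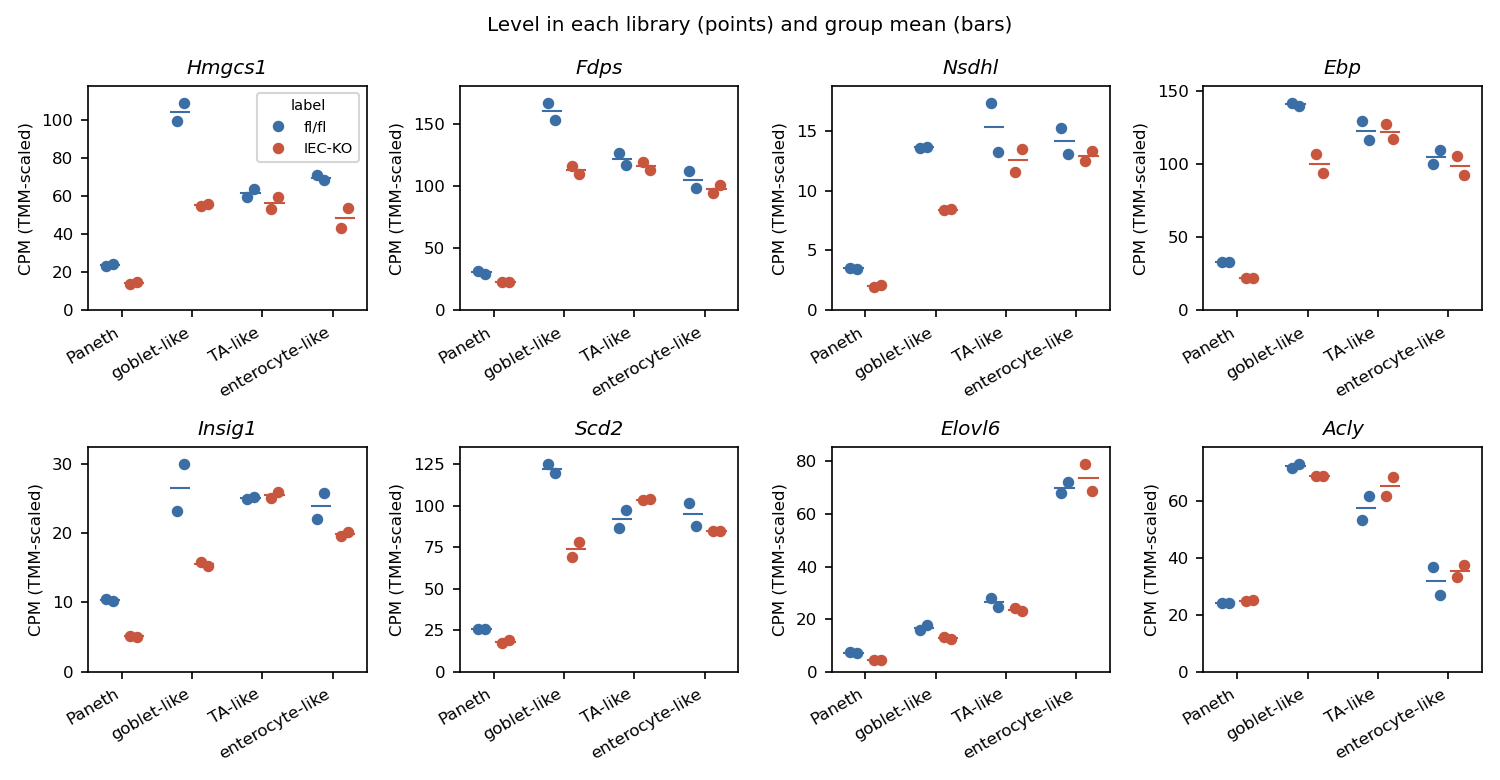
Level of 8 members (CPM after TMM scaling within each class, vertical axes from 0) in each library, by class; points are libraries, bars the mean of the 2 libraries of a label. Hmgcs1 in goblet-like cells lies at 99.8 and 109 CPM in the fl/fl libraries and at 55.0 and 55.9 in the IEC-KO libraries, while its TA-like levels overlap.

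Beside the members, *Acat2*, a cytosolic thiolase that supplies the mevalonate pathway, was lower (log2 fold change -0.45). *Insig2*, of the SREBP processing genes, was lower as well (-0.36, adjusted p = 0.00749), and the others of that group are not given here. Among 8 tested genes of sterol efflux and esterification, *Abcg5* and *Abcg8*, which together form the apical sterol exporter, were lower (-1.27 and -1.03) and *Soat2*, which stores cholesterol as esters, was higher (4.87 and 4.68 CPM in the fl/fl against 11.1 and 12.3 in the IEC-KO libraries, log2 fold change 1.30, adjusted p = 4.82e-06). None of 10 fatty acid oxidation genes tested passed in either direction.

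The goblet-like clusters were not named on equal grounds. Of 15 goblet markers, 13 were raised in the cluster led by *Serpina1b*, 12 in that led by *Zg16* and 5 in that led by *Ccl9*, 0 of them among its leading genes. The unnamed cluster led by *Plet1* had 7 and was left out. It held 6 and 2 cells of the fl/fl and 803 and 859 of the IEC-KO libraries, and the class was not tested with it. The makeup of the goblet-like class differed between the labels and moved with the levels of the members. In the fl/fl libraries 440 of 658 and 336 of 512 goblet-like cells belonged to the cluster led by *Serpina1b*, whereas the IEC-KO libraries had 191 and 221 cells there and most of their 3216 and 3050 goblet-like cells in the clusters led by *Zg16* (1904 and 1663) and *Ccl9* (1098 and 1130). The fl/fl libraries had only 66 and 51 cells in the *Zg16* cluster and 148 and 123 in the *Ccl9* cluster, so their values there rest on few cells. The 28 genes together took 1329 and 1247 unscaled CPM in the *Serpina1b* cluster of the fl/fl libraries and 1260 and 1190 in that of the IEC-KO libraries. They took 1062 and 994 against 915 and 872 unscaled CPM in the *Zg16* cluster, and 986 and 942 against 898 and 893 in the *Ccl9* cluster. The sums were thus lower in both IEC-KO libraries inside the *Zg16* and *Ccl9* clusters and overlapped in the *Serpina1b* cluster, and of the 3 clusters *Serpina1b* had the highest sum in each library.

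Tested inside 1 cluster at a time, a choice made after seeing the data, 2, 3 and 2 members were lower and 0 higher in the clusters led by *Serpina1b*, *Zg16* and *Ccl9*, where 1.13%, 1.97% and 2.4% of the genes tested were lower and 1.45%, 3.17% and 3.22% higher. The medians over members were -0.20, -0.26 and -0.23. *Hmgcs1* was lower in each of the 3: it took 112 and 119 unscaled CPM in the *Serpina1b* cluster of the fl/fl libraries against 48.0 and 65.5 in the IEC-KO libraries, 71.6 and 84.4 against 57.5 and 57.7 in the *Zg16* cluster, and 74.0 and 77.5 against 55.3 and 54.6 in the *Ccl9* cluster. The log2 fold changes were -1.14, -0.53 and -0.54 (adjusted p = 5.53e-06, 0.0456 and 0.000812). *Insig1* passed in the *Serpina1b* cluster (-0.88, adjusted p = 0.0323), *Ebp* in the *Zg16* and *Ccl9* clusters (-0.54 and -0.43) and *Fasn* in the *Zg16* cluster (-0.96). *Scd2* passed in none of them, with 135 and 125 unscaled CPM against 128 and 128 in the *Serpina1b* cluster, and log2 fold changes of -0.18, -0.48 and -0.24 (adjusted p = 0.428, 0.122 and 0.240). Ribosomal protein genes took 16.5% and 16.3% of goblet-like UMIs in the fl/fl and 22.7% and 22.4% in the IEC-KO libraries, goblet markers 20.9% and 20.7% against 18.1% and 17.5%, and Defa genes 7.60% and 8.84% against 5.78% and 7.13%. Of 12 enterocyte markers 8 were lower in the same sums, and of 15 goblet markers 7 were lower and 1 higher. Their part in the result was not tested. With cells thinned to 2000 UMIs the members called lower were 7, and in DESeq2 10. Fewer were also called lower without fl/fl replicate 1 or 2. The calls over all genes fell under each of these settings too, by counts given in the last section.

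**Figure D2:**
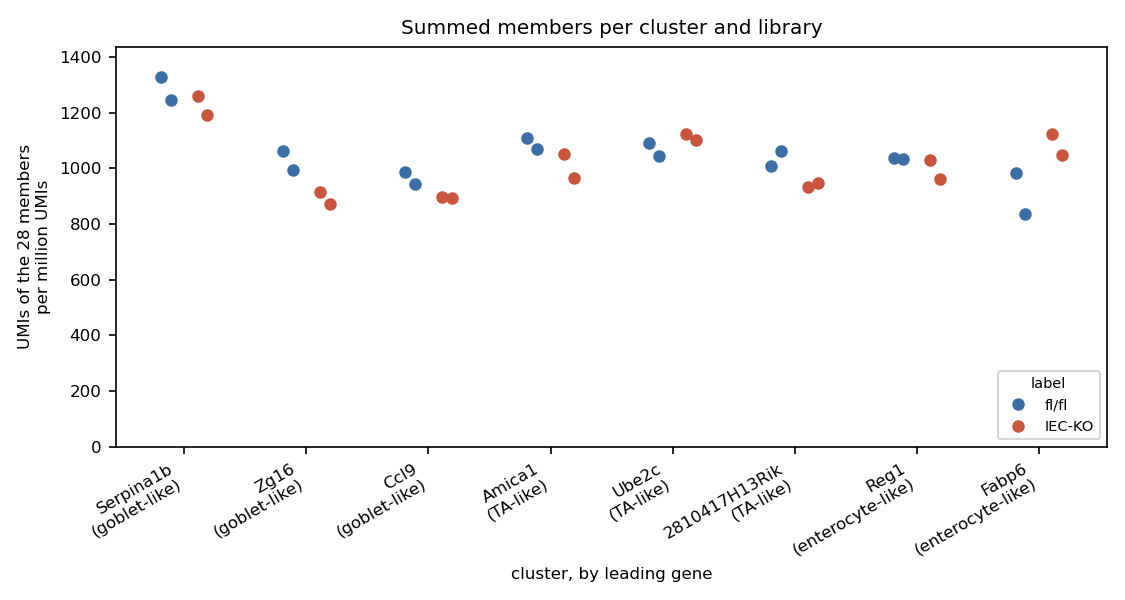
UMIs of the 28 members, as unscaled CPM (vertical axis from 0) in each library, by cluster; a cluster is named by its leading gene and its class. In the Zg16 and Ccl9 clusters both IEC-KO libraries lie under both fl/fl libraries, and in the Serpina1b cluster 1247 (fl/fl) lies under 1260 (IEC-KO). The fl/fl libraries hold 66 and 51 cells in the Zg16 and 148 and 123 in the Ccl9 cluster.

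In TA-like cells, the dividing progenitors of the crypt, few members passed. Of 27 tested, 0 were lower (3.68% of 10813 genes were) and 1 was higher (5.37% of genes were), with a median log2 fold change of -0.04. At an unadjusted p under 0.05, 2 were lower and 4 higher, a count not made over all genes. DESeq2 called 0 in either direction. *Hmgcs1* had 59.4 and 63.6 CPM in the fl/fl and 53.3 and 59.5 in the IEC-KO libraries, *Scd2* 86.5 and 97.3 against 104 and 104, and *Insig1* 24.9 and 25.3 against 25.1 and 25.9. The groups overlapped for *Hmgcs1* and *Insig1*, and none of these passed. The member that was higher was *Srebf1*, with 8.49 and 8.86 CPM against 12.4 and 13.2 (log2 fold change 0.57, SE 0.17, adjusted p = 0.024). That call was lost in DESeq2, with cells thinned to 2000 UMIs (0.30, adjusted p = 0.816) and without fl/fl replicate 1, fl/fl replicate 2 or IEC-KO replicate 2 (0.54, 0.60 and 0.52 on the log2 scale for the last 3). Scaled by library size only, 1 member was lower and the genes called were 6.52% lower and 3.62% higher. Of related genes, after TMM scaling, *Slc25a1* was higher (log2 fold change 0.29) and *Mlxipl* (-0.44) and *Hadhb* (-0.39) were lower. These were not followed through the alternatives.

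In enterocyte-like cells, the absorptive lineage, 1 member was lower and 0 higher, where 0.742% of 9293 genes were lower and 1.88% higher, with a median of -0.13 over members. At an unadjusted p under 0.05, 2 were lower and 0 higher, again without a count over all genes. The member was again *Hmgcs1*, with 71.1 and 68.3 CPM in the fl/fl and 43.1 and 53.6 in the IEC-KO libraries (log2 fold change -0.52, SE 0.13, adjusted p = 0.0228). The groups were apart, but the call was lost without fl/fl replicate 1, fl/fl replicate 2 or IEC-KO replicate 1 (-0.49, -0.55 and -0.38). It was also lost in DESeq2, with cells thinned to 2000 UMIs (-0.66) and with library size only (-0.29). By library size only, 0.613% of genes were lower and 10% higher. *Elovl6*, the enzyme that extends palmitate, took its largest share here: 64.5 and 64.0 unscaled CPM in the fl/fl and 87.7 and 72.2 in the IEC-KO libraries, compared with 22.3 to 29.1 in TA-like, 12.6 to 17 in goblet-like and 5.33 to 6.10 in Paneth cells. Its enterocyte-like change did not pass. Of related genes, *Soat1*, which esterifies cholesterol, was higher after TMM scaling (log2 fold change 0.95, adjusted p = 0.0455), a call not followed through the alternatives. Classes drawn from clusters had no Defa limit. Of the enterocyte-like cells, 30 of 278 and 31 of 232 in the fl/fl libraries were also Paneth cells by the 30% limit. In the IEC-KO libraries these were 14 of 611 and 19 of 590. Defa genes took 14.2% and 17.7% of enterocyte-like UMIs in the fl/fl libraries and 6.76% and 9.74% in the IEC-KO libraries. The part of these cells and of Defa genes in the levels was not tested.

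**Figure D3:**
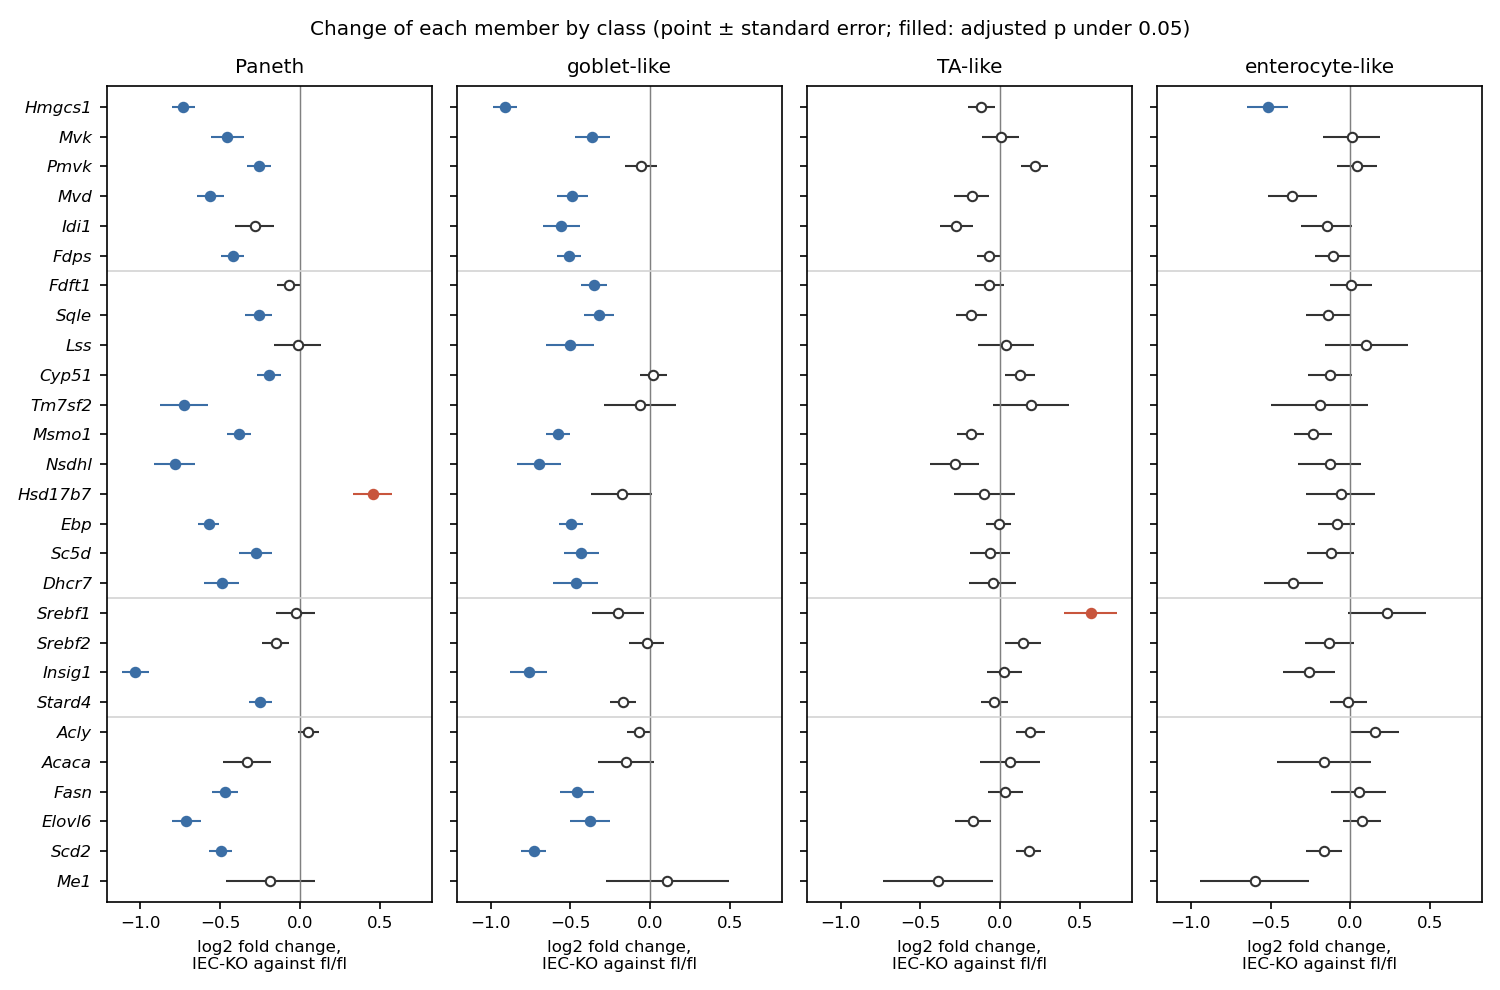
Log2 fold change of the 27 members tested, IEC-KO against fl/fl, in 4 classes. Points are estimates, filled where the adjusted p was under 0.05. Bars are standard errors, here the absolute log2 fold change divided by the square root of edgeR's F statistic. Grey lines divide the mevalonate, sterol, regulator and fatty acid groups. After TMM scaling, goblet-like and Paneth cells hold 17 and 18 filled points to the left of 0, where 8.34% and 19.8% of all genes tested were lower. TA-like and enterocyte-like cells hold 0 and 1, where 3.68% and 0.742% were lower. For many of the Paneth points the sign turned with library size only.

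The contrast between goblet-like and TA-like cells was tested itself, a comparison chosen after its values had been seen. With both sums of each library in 1 model, the change of 10 members was lower in goblet-like than in TA-like cells and that of 0 was higher (0 also at an unadjusted p under 0.05 and in DESeq2), where 7.12% of 10986 genes were lower and 3.57% higher. The difference of the log2 fold changes was -0.93 for *Scd2* (SE 0.08, adjusted p = 4.33e-11), -0.82 for *Hmgcs1* (SE 0.09), -0.81 for *Insig1* (SE 0.14) and -0.79 for *Srebf1* (SE 0.22). *Fasn*, *Ebp*, *Fdps*, *Msmo1*, *Fdft1* and *Acly* followed with -0.52 to -0.28. On library size alone the count was 6, with 2.89% of genes lower and 9.61% higher. In DESeq2 and with cells thinned to 2000 UMIs it was 4, and it also fell without fl/fl replicate 1. The genes called lower over all genes fell under each of these settings too, by counts given in the last section.

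In Paneth cells the direction depended on the scaling for many members. After TMM scaling, 18 of 27 members were lower and 1 higher in the IEC-KO libraries, where 19.8% of 12492 genes were lower and 20.1% higher, and the median was -0.33 over members. By library size alone, 1 member was lower and 14 were higher, 3.63% of genes were lower and 70.4% higher, and the medians were 0.28 over members and 0.62 over all genes. By library size alone, the median of the members thus lay under that of all genes. Either scaling applies 1 factor per sum to all genes, and leaving out TMM raised the members' ratios by 0.613 to 0.623. The gap between the medians is therefore nearly fixed, and the change of scaling puts it to no test. Defa genes took 41.2% and 44.0% of Paneth UMIs in the fl/fl and 36.8% and 37.2% in the IEC-KO libraries, and ribosomal protein genes 3.98% and 3.86% against 10.6% and 10.6%. With Defa, granule (here the list of Paneth markers) and ribosomal genes left out of the TMM factors, 18 members were lower and 1 higher. Genes such as *Gm15292* and *Gm15299*, which led Paneth clusters, were not among those left out. With a Defa limit of 40%, 9 were lower, and with each cell thinned to 2000 UMIs 5 were. The calls over all genes fell under both settings too, by counts given in the last section. The labels' Paneth cells sat in different clusters, led by *Gm15292* in the fl/fl and by *Gm15299* and *Reg4* in the IEC-KO libraries, and the part of these values and of that split in the result was not tested.

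*Insig1* was lower by both scalings. It had 10.5 and 10.3 CPM in the fl/fl and 5.16 and 5.02 in the IEC-KO libraries (log2 fold change -1.03, SE 0.09, adjusted p = 2.97e-09), and 8.76 and 8.03 unscaled CPM against 6.27 and 6.34 (-0.41 with library size only). It stayed past the threshold in each of the other alternatives tried, from -1.05 to -0.88. *Hmgcs1* had 23.5 and 24.2 against 13.6 and 14.9 CPM (-0.73, adjusted p = 4.18e-08), but 19.6 and 18.9 against 16.6 and 18.8 unscaled CPM. Its groups were apart by either measure, though by little without the scaling. *Nsdhl* had 3.57 and 3.46 against 1.98 and 2.07 CPM (-0.79), *Elovl6* 7.31 and 6.94 against 4.39 and 4.32 (-0.71) and *Tm7sf2*, a sterol reductase, 2.78 and 2.64 against 1.42 and 1.78 (-0.73). All of these were lower after TMM scaling. With library size only none of the last 3 passed, and *Hmgcs1* did not pass either.

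For 13 members called lower the sign turned with the scaling. *Ebp* had 33.1 and 32.9 CPM in the fl/fl and 22.2 and 22.1 in the IEC-KO libraries (log2 fold change -0.57), but 27.6 and 25.7 against 27.0 and 28 unscaled CPM. *Fdps* had 32.0 and 28.8 against 23.1 and 22.3 CPM (-0.42), but 26.7 and 22.5 against 28.1 and 28.2 unscaled CPM. The other 11 were *Pmvk*, *Cyp51*, *Mvk*, *Dhcr7*, *Msmo1*, *Mvd*, *Sc5d*, *Fasn*, *Sqle*, *Stard4* and *Scd2*. *Hsd17b7*, a ketoreductase of the sterol branch, was the 1 member that was higher, 2.68 and 3.07 against 4.28 and 3.72 CPM (0.46, adjusted p = 0.00502) and 2.23 and 2.40 against 5.2 and 4.7 unscaled CPM. Both measures put it above, though library size only raised every member and so could not turn its sign. The call was lost without fl/fl replicate 1 (0.35), with cells thinned (0.95) and with the 40% Defa limit (0.02). The members that did not pass after TMM scaling were *Idi1* (4.06 and 4.17 against 2.84 and 3.75 CPM), *Fdft1* (16.5 and 16.0 against 14.8 and 15.9), *Lss* (2.45 and 2.63 against 2.06 and 2.81), *Srebf1* (2.93 and 3.13 against 2.92 and 3.02), *Srebf2* (11.8 and 10.4 against 9.69 and 10.3), *Acly* (24.0 and 24.0 against 24.7 and 25.1), *Acaca* (3.38 and 2.61 against 2.01 and 2.62) and *Me1* (0.559 and 0.508 against 0.508 and 0.444). *Scd1* had 10, 3, 3 and 0 UMIs in all and was not tested.

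**Figure D4:**
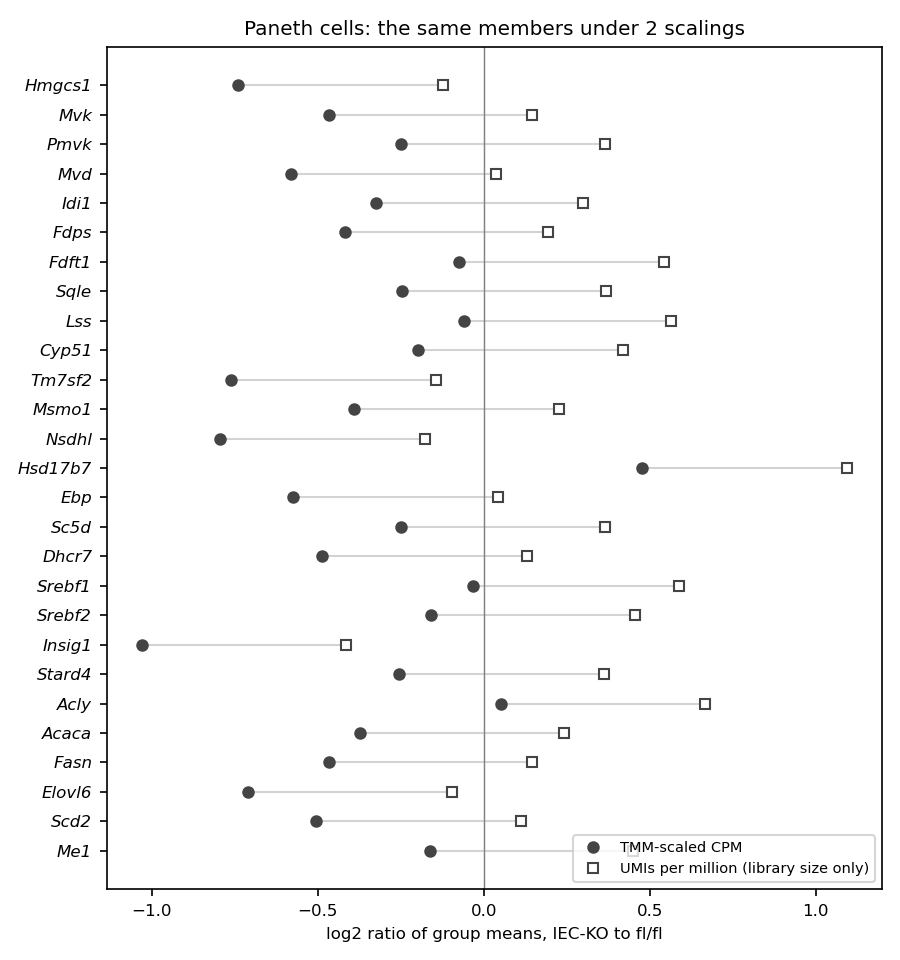
Paneth cells: log2 ratio of the mean level in the IEC-KO libraries to that in the fl/fl libraries for the 27 members tested, by TMM-scaled CPM (filled circles) and by unscaled CPM (open squares). Of the circles 25 lie under 0, and of the squares 22 lie above it.

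Around the pathway in Paneth cells, *Acat2* was lower after TMM scaling (log2 fold change -0.90), as were *Abcg5* (-1.49) and *Abcg8* (-1.19), while *Soat2* (1.18) and *Soat1* (0.51), both of which esterify cholesterol, were higher. After TMM scaling, 19.8% of all 12492 genes tested were lower and 20.1% higher. With library size only, 3.63% were lower and 70.4% higher. After TMM scaling, of 9 sterol efflux and esterification genes 4 were higher and 2 lower. Of 11 fatty acid oxidation genes 1 was higher and 7 lower, and of 12 other fatty acid and glyceride genes 0 were higher and 4 lower. Among 6 genes of SREBP processing and the nuclear sterol receptors, 2 were higher and 2 lower. With library size only, *Acat2*, *Abcg5* and *Abcg8* stayed below 0. *Soat1* and *Soat2* stayed above 0, but that scaling raised the log2 ratios of the members by 0.613 to 0.623. It therefore puts no upward change to a test. Enterocyte markers were lower for 12 of 12 and TA markers for 12 of 13 in the same Paneth sums after TMM scaling. Unscaled, enterocyte markers took 0.106% and 0.103% of Paneth UMIs in the fl/fl against 0.0626% and 0.0703% in the IEC-KO libraries. TA markers took 0.0232% and 0.0223% against 0.0192% and 0.0221%. The part of these markers was not tested.

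Over all other cells together, 12 members were lower and 1 higher in the IEC-KO libraries, where 16.7% of 12377 genes were lower and 17% higher, and the median over members was -0.18. *Me1*, which makes NADPH for fatty acid synthesis, *Hmgcs1*, *Elovl6* and *Nsdhl* changed most (log2 fold changes -0.59, -0.52, -0.50 and -0.48). *Acly* was higher, with 56.2 and 56.9 CPM against 67.9 and 67.1 (0.26, adjusted p = 0.00416), a call that was lost without fl/fl replicate 1 (0.24). With library size only 19 were lower and 0 higher, with 30.6% of genes lower and 9.47% higher. The makeup of this class differed between the 2 labels. Goblet-like cells made up 42.7% and 41.1% of it in the fl/fl and 47.1% and 48.3% in the IEC-KO libraries, TA-like cells 38.0% and 39.1% against 18.3% and 19.8%, enterocyte-like cells 16.3% and 16.7% against 8.58% and 8.75%, cells of clusters with Paneth markers 0.536% and 0.340% against 11.7% and 7.72%, and the unnamed cluster led by *Plet1* 0.402% and 0.170% against 11.1% and 12.8%. Of 13 TA markers 13 were lower and of 12 enterocyte markers 12 were lower. Their part in the result was not tested.

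Set against other cells within the same libraries, the members took a small share of Paneth UMIs, 0.0273% and 0.0247% in the fl/fl and 0.0299% and 0.0319% in the IEC-KO libraries, compared with 0.118%, 0.114%, 0.0918% and 0.0914% in other cells. After TMM scaling, 16 members were lower and 5 higher in Paneth than in other cells of the fl/fl libraries, where 30.7% of 13039 genes were lower and 27.7% higher, and 18 were lower and 3 higher in the IEC-KO libraries, where 25.5% were lower and 24.7% higher. The 5 were *Tm7sf2* (log2 fold change 0.68), *Srebf2* (0.42), *Fasn* (0.42), *Acly* (0.31) and *Insig1* (0.29), and the 3 were *Hsd17b7* (0.67), *Srebf2* (0.20) and *Acly* (0.12). With library size only each of the 27 lay lower in Paneth cells in both labels, as did 92.5% and 90.4% of all genes, with 1.15% and 1.64% higher. *Idi1* stood furthest apart by TMM scaling, at -1.23 in the fl/fl and -1.08 in the IEC-KO libraries.

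The change in Paneth cells was lower than that in other cells for 11 members and higher for 1, where 11.3% of 13039 genes were lower and 11% higher. At an unadjusted p under 0.05, 14 were lower and 1 higher, a count not made over all genes. DESeq2 called 2 lower and 0 higher, and it also called fewer of all genes than edgeR, by counts given in the last section. *Tm7sf2* (-0.77) and *Insig1* (-0.60, adjusted p = 3.41e-07) differed most, and *Hsd17b7* (0.60) was the 1 that was higher. By library size alone 25 members were higher and 0 lower, with 73.2% of genes higher and 0.514% lower. Leaving out any 1 library left 5 to 7 members lower, 5 without fl/fl replicate 1 and 7 without each of the others.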

How the data were processed

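The 28 genes and the other lists were chosen with earlier results of these data known. Cells were sorted from crypts and sequenced as 2 fl/fl and 2 IEC-KO libraries. The authors deposited raw UMI counts per gene and cell, made with Cell Ranger 2.1.1 and mm10 per the submitters' processing notes, already filtered to cells and not normalized. Totals were 87922473 to 127094508 UMIs per library, and precision is limited by the 2 libraries per label. No cell had under 200 genes, and all 26498 cells were kept. The lowest UMIs of any cell were 8909 and 9670 in the fl/fl against 3843 and 5858 in the IEC-KO libraries. At least 10000 UMIs were reached by 343 of 658 and 450 of 512 goblet-like cells in the fl/fl libraries. In the IEC-KO libraries 216 of 3216 and 588 of 3050 did. Pairs of libraries shared 14 to 132 barcodes.

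Counts were summed per library and class and tested with edgeR 4.0.16 (quasi-likelihood test, TMM, filterByExpr) over all genes passing the filter, called at a Benjamini-Hochberg adjusted p under 0.05. Each SE given is the absolute log2 fold change divided by the square root of the test's F statistic, since edgeR itself reports none. Differences between classes were tested over 8 sums with library as a block. Paneth cells had at least 30% and other cells under 20% Defa UMIs, and cells in between (120, 89, 1305 and 1218) entered neither. Goblet-like, TA-like and enterocyte-like cells came from 17 Leiden clusters (scanpy 1.11.5, resolution 1, 2000 variable genes, 30 principal components, 20 neighbours), drawn without the 28 genes and without 841 genes of the study's own lists. These classes had no Defa limit, so a cell could also count as a Paneth cell. Doublets were kept, and left out in an alternative for Paneth and other cells only. Of goblet-like cells, 0.608% and 0.195% were called doublets in the fl/fl and 5.25% and 4.43% in the IEC-KO libraries. The shares were 2.79% and 1.07% against 11.5% and 10.8% of TA-like cells, and 4.32% and 6.47% against 16.2% and 15.1% of enterocyte-like cells. The number called per library was set by its number of cells. The part of doublets in these classes was not tested. The other alternatives were library size only, DESeq2 1.42.0, other filters and class limits, cells thinned to 2000 UMIs, the replicate number as a block, and each library left out in turn. The scripts were tested on simulated counts with known changes. All 28 genes are named, and of other lists at most 6 past the threshold per comparison. 1 result on a gene outside the 28 is not reported here. In the annotation *Tm7sf2* and *Fdps* each overlap another gene on the same strand, so some of their reads may be uncertain. Promoter letters came from RefSeq.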

Additional observations from a re-analysis of the deposited data

Results flagged for a closer look

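Of the differences between changes in 2 classes, those past the threshold are listed here. Between Paneth and other cells, edgeR's interaction term called 12 members, whose log2 change in Paneth cells minus that in other cells was -0.21 for *Hmgcs1*, -0.30 for *Mvk*, -0.32 for *Pmvk*, -0.28 for *Mvd*, -0.19 for *Fdps*, -0.33 for *Cyp51*, -0.77 for *Tm7sf2*, -0.29 for *Ebp*, -0.60 for *Insig1*, -0.19 for *Acly*, -0.30 for *Fasn* and 0.60 for *Hsd17b7*. Those below 0 turned or lost their call with library size only.

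Between goblet-like and TA-like cells, 10 members were called, with a difference of -0.82 for *Hmgcs1*, -0.46 for *Fdps*, -0.30 for *Fdft1*, -0.41 for *Msmo1*, -0.51 for *Ebp*, -0.79 for *Srebf1*, -0.81 for *Insig1*, -0.28 for *Acly*, -0.52 for *Fasn* and -0.93 for *Scd2*. No sign turned in the alternatives tried, which did not include single goblet-like clusters, and 6 members were called lower with library size only. Inside the clusters led by *Serpina1b*, *Zg16* and *Ccl9*, *Scd2* changed by -0.18, -0.48 and -0.24 and passed in none. *Hmgcs1* changed by -1.14, -0.53 and -0.54 and passed in each. In the *Serpina1b* cluster both IEC-KO libraries lay below both fl/fl libraries for 5 of the 28 members, above for 5, with 18 overlapping. These counts were 11, 4 and 13 in the *Zg16* and 14, 3 and 11 in the *Ccl9* cluster. They were not made over all genes, so they are not read as a result about the members. The share of the cluster led by *Serpina1b* among goblet-like cells differed between the labels as given above, and its part in these differences was not tested.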

How the results depend on the processing

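Not every setting was run for every comparison. Doublets were left out in Paneth and other cells only. Cells under 10000 UMIs were left out, and Defa limits made stricter, in these classes and their contrasts only. Goblet-like, TA-like and enterocyte-like cells had no such refits. They also had none without a filter or with Defa, granule and ribosomal genes out of TMM. Each gene called among the members and a few related genes was refitted under the settings run for its comparison. Of these results 334 in Paneth, 252 in other, 157 in goblet-like, 4 in TA-like and 3 in enterocyte-like cells kept their direction and side of the threshold, while 50, 33, 103, 5 and 6 kept only their direction, and the sign turned for 14 in Paneth and 4 in goblet-like cells. It also turned for 12 of the change in Paneth against other cells (67 kept the call, 53 lost it) and for 5 and 4 of Paneth against other cells in the fl/fl and IEC-KO libraries (116 and 118 kept it, 25 and 25 lost it). For the change in goblet-like against TA-like cells 45 kept the call and 25 lost it. With library size only, members called in Paneth cells were 14 higher and 1 lower (median 0.28), with values of 0.045 for *Ebp*, 0.20 for *Fdps*, 0.36 for *Pmvk*, 0.42 for *Cyp51*, 0.16 for *Mvk*, 0.13 for *Dhcr7*, 0.24 for *Msmo1*, 0.054 for *Mvd*, 0.35 for *Sc5d*, 0.15 for *Fasn*, 0.36 for *Sqle*, 0.37 for *Stard4* and 0.12 for *Scd2*. Other cells then had 0 higher and 19 lower, TA-like cells 1 lower and enterocyte-like cells 0 lower (median 0.10). The change in Paneth against other cells had 25 higher and 0 lower (median 0.57), with 0.47 for *Ebp*, 0.57 for *Fdps*, 0.44 for *Pmvk*, 0.43 for *Cyp51*, 0.17 for *Insig1*, 0.46 for *Mvk*, 0.47 for *Mvd*, 0.57 for *Acly*, 0.46 for *Fasn* and 0.55 for *Hmgcs1*. Paneth against other cells had 0 higher and 27 lower in the fl/fl libraries, with -1.64 for *Insig1*, -1.62 for *Acly*, -1.51 for *Fasn*, -1.50 for *Srebf2* and -1.24 for *Tm7sf2*, and 0 higher in the IEC-KO libraries, with -0.50 for *Hsd17b7*, -1.05 for *Acly* and -0.97 for *Srebf2*. The change in goblet-like against TA-like cells had 6 lower.

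In DESeq2, 10 members were lower in goblet-like cells, 0 higher in TA-like cells and 0 lower in enterocyte-like cells. Paneth against other cells had 9 lower in the fl/fl and 1 higher in the IEC-KO libraries, the change in Paneth against other cells 0 higher and 2 lower, and the change in goblet-like against TA-like cells 4 lower. With cells thinned to 2000 UMIs, members called were 0 higher and 5 lower in Paneth cells (*Cyp51* at 0.11), 6 lower in other, 7 lower in goblet-like, 0 higher in TA-like and 0 lower in enterocyte-like cells. Thinned, Paneth against other cells had 0 higher and 6 lower in the fl/fl and 1 higher and 11 lower in the IEC-KO libraries. The change in Paneth against other cells then had 0 higher and 1 lower (*Mvk* at 0.13 and *Acly* at 0.095), and that in goblet-like against TA-like cells 4 lower. Thinning and single clusters leave fewer counts. The size of the changes moved as well: in the *Serpina1b* cluster *Scd2* changed by -0.18 (-0.73 in the class) and *Hmgcs1* by -1.14 (-0.91). Why calls were lost was not tested. With stricter Defa limits, Paneth cells had 0 higher and 9 lower, and the change in Paneth against other cells 0 higher and 2 lower. With cells under 10000 UMIs left out, *Fdft1* stood at 0.030 in Paneth against other cells of the IEC-KO libraries. In the goblet-like clusters led by *Serpina1b*, *Zg16* and *Ccl9*, 2, 3 and 2 members were lower, with *Sc5d* at 0.034 and *Sqle* at 0.21 in the *Zg16* cluster and *Mvk* at 0.15 and *Lss* at 0.27 in the *Ccl9* cluster. The single clusters, classes matched to cluster names and the comparison of goblet-like with TA-like changes were chosen after seeing the data.

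Leaving out 1 library at a time gave 0 to 1 members higher and 14 to 17 lower in Paneth cells, 0 to 1 higher and 9 to 14 lower in other cells, 10 to 15 lower in goblet-like cells, 0 to 2 higher in TA-like cells, 0 to 1 lower in enterocyte-like cells, 0 to 1 higher and 5 to 7 lower for the change in Paneth against other cells, and 6 to 12 lower for that in goblet-like against TA-like cells. Replicate numbers are shared by the labels, but deviations of libraries with the same number correlated only at 0.0095 to 0.0507, so they share a number and no known pairing. With the replicate block, members lower were 19 in Paneth, 14 in other and 17 in goblet-like cells, 1 was higher in TA-like and 1 lower in enterocyte-like cells, and genes lower in enterocyte-like cells were 122.

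Counts over all genes moved more than 1.5 times as follows, higher before lower. With library size only they were 8795 and 454 in Paneth, 1172 and 3787 in other, 932 higher in enterocyte-like and 705 lower in TA-like cells, 150 and 12063 for the class contrast in the fl/fl and 214 and 11790 in the IEC-KO libraries, 9550 and 67 for the Paneth against other change, and 1056 and 317 for the goblet-like against TA-like change. In DESeq2 they were 1636 and 1487 in Paneth, 1272 and 1220 in other, 431 and 396 in goblet-like, 203 and 90 in TA-like and 76 and 26 in enterocyte-like cells, against 2515 and 2475, 2102 and 2061, 959 and 908, 581 and 398, and 175 and 69 in edgeR. Thinned they were 656 and 586, 961 and 882, 306 and 241, 123 and 82, and 31 and 31. The class contrast had 2181 and 2471 in the fl/fl and 1492 and 1823 in the IEC-KO libraries in DESeq2 (thinned 1031 and 1130, and 1221 and 1289), against 3616 and 4007, and 3227 and 3325 in edgeR. The Paneth against other change had 460 and 416 (thinned 211 and 281) against 1439 and 1467, and the goblet-like against TA-like change 111 and 277 (thinned 145 and 215) against 392 and 782. Stricter Defa limits gave 1404 and 1258 in Paneth cells, 2060 and 2183 for the class contrast in the IEC-KO libraries and 538 and 567 for the Paneth against other change, and the single goblet-like clusters 120 and 94, 305 and 190, and 297 and 221. Without fl/fl replicate 1 the counts were 531 and 495 in goblet-like and 315 and 192 in TA-like cells, 866 and 904 for the Paneth against other change and 241 and 463 for the goblet-like against TA-like change. Without fl/fl replicate 2 they were 624 and 545 in goblet-like and 294 and 166 in TA-like cells and 217 higher for the goblet-like against TA-like change, 1389 and 1397 genes were higher in other cells and 106 and 105 in enterocyte-like cells without fl/fl replicates 1 and 2, and without IEC-KO replicate 1 enterocyte-like cells had 343 and 146. *Scd1* was counted too rarely to be tested.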
